A study of Rattus norvegicus with 8 samples.

Results

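Complex I, the NADH:ubiquinone oxidoreductase of the mitochondrial inner membrane, was described here through the transcripts of its nuclear-encoded subunits in a hind limb muscle of hyperthyroid and control rats. Its subunits were taken as the probe sets of the deposited expression table whose single platform gene symbol starts with Ndufa, Ndufb, Ndufc, Ndufs or Ndufv, without the assembly factors named Ndufaf. This rule found 39 probe sets of 36 genes among 31099 probe sets on the array. The brightest probe set represented each gene, and all 36 genes passed the filter on low signal and were among the 10200 genes tested. The rule used names only and no measured value. Of the 36 genes, 6 encode core subunits, and the other 30 were counted as accessory. These include Ndufa4, Ndufa4l2 and Ndufab1, which are described apart. Another 2 complex I probe sets carried several symbols, Ndufs5 with its pseudogene and Ndufa10 with Ndufa10l1, and were not members.

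The tibialis anterior, a muscle of the lower leg made mostly of fast fibres, came from adult Sprague-Dawley rats that weighed 200 ± 40 g at the start. Hyperthyroid rats (n = 4) had received intraperitoneal injections of T3 (triiodothyronine, the active thyroid hormone), at a dose of 25 µg per 100 g, 1 injection every 2 days over 6 weeks, and were killed 24 hours after the last one. Control rats (n = 4) are labelled untreated, with no mention of a vehicle injection. Each group held 3 males and 1 female, and no label ties a sex to an array, so sex was not part of the fit. Each rat gave 1 array, and precision is limited by having 4 arrays a group. Intensities are on a linear scale, and a log2 fold change is the difference, hyperthyroid minus control, of mean log2(intensity + 3.41). Whole muscle was measured, so fewer fibres of a type and less RNA per fibre cannot be told apart.

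Complex I passes electrons from NADH to ubiquinone and pumps protons across the inner membrane. Its hydrophilic arm reaches into the matrix and holds the flavin and the iron-sulphur clusters, while its membrane arm holds the proton pumps. Core subunits, which have bacterial counterparts, carry out catalysis; the accessory subunits surround them and serve assembly and stability. Thyroid hormone is known to raise mitochondrial content and oxidative capacity in skeletal muscle, with a response that depends on the muscle.

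The labelled muscle type was borne out by its markers, since the 10 fast-fibre genes measured of 11 listed had summed intensities of 269200 to 339100 on hyperthyroid and 336300 to 381300 on control arrays, with Ckm at 39275 to 45031 on hyperthyroid and 47711 to 63514 on control arrays. Array medians ran from 38.8 to 54.9, and the mean after leaving out 2% of values at each end was 150 on every array. In a principal component analysis of the probe sets kept, control replicate 11 lay at 94.7 on component 1, where the other arrays ran from -25.3 to 23.9. Control replicate 9 lay at -87.1 on component 2, where the other arrays ran from -8.96 to 26.8. Of all genes tested, 7 passed a limma adjusted p of 0.05, which is 0.0686% of them, and none of these was a complex I subunit.

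No complex I subunit passed the adjusted threshold over all genes tested on the deposited scale. Scaling arrays to the hybridization controls raised the median of all genes by 0.32, and 114 of the 10200 genes tested then passed. Ndufs4 was the only subunit among them (1.05, limma adjusted p = 0.0366), and relative to that shift no subunit passed. Most subunits lay slightly lower in hyperthyroid muscle, with 27 of 36 log2 fold changes below 0 and a median of -0.12, or a fold of 0.920. Over all genes tested, 50% lay below 0 and the median was -0.00029. The smallest limma adjusted p among the subunits was 0.273, for Ndufs4, the only subunit with a large positive difference. At an unadjusted p under 0.05, 5 subunits were lower (Ndufa8, Ndufc2, Ndufa9, Ndufb9 and Ndufs3) and 1 was higher (Ndufs4). That threshold was met by 5.21% of all genes for lower values and 5.38% for higher values. Among the 237 other genes with a mean log2 signal of at least 12, 64 were lower at that threshold and 11 higher. Hyperthyroid and control arrays did not overlap for 4 subunits, all lower, against 3.21% of all genes. Among those 237 bright genes, 38 were separate and lower and 11 separate and higher. Without control replicate 9 the count of separate subunits was 15 lower, against 6.45% of all genes, and 0 higher, against 5.48%. Replicate 9 was the lowest control array for 29 of 36 subunits. Without any other single array the count was 4 or 5 lower, against 4.53% to 5.5% of all genes. It was then 0 or 1 higher, against 4.32% to 5.43%. The lower level depended on how arrays were scaled: after quantile normalization 18 of 36 subunits lay below 0 and the median was -0.0073. With arrays centred on their medians or scaled to the hybridization controls, and the shift of all genes left in, the direction turned, with medians of 0.10 and 0.20 and with 7 and 4 of 36 below 0. Relative to the median gene, both gave a median of -0.12. Without hyperthyroid replicate 5 the median was -0.034. The count of 5 lower subunits was 3 after quantile normalization, 10 without control replicate 9, and 1 without both control replicates 7 and 11. No share of all genes at that threshold is given for these alternatives, so these counts have no background to be set against.

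**Figure D1:**
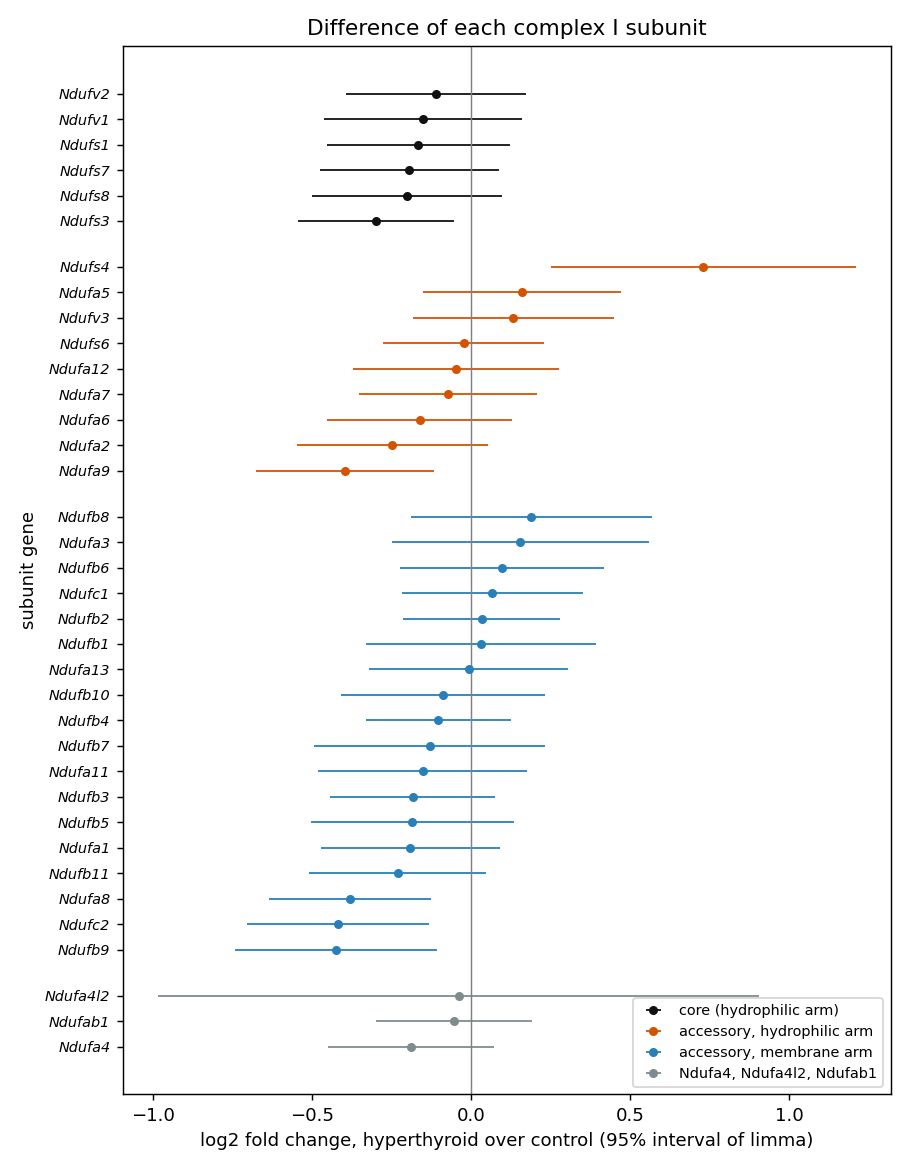
Log2 fold change (hyperthyroid over control) of each of the 36 complex I subunits, as points with 95% intervals from limma, 4 arrays a group, grouped by place in the complex. The 6 core subunits lie between -0.30 and -0.11, and Ndufs4 stands alone on the right at 0.73.

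On the deposited scale the limma intervals give a range for each difference, and they leave out the choice of array scaling. With arrays centred on their medians or scaled to the hybridization controls, and the shift of all genes left in, the subunit median was 0.10 and 0.20. The intervals below hold for the deposited scale only. For 30 of 36 subunits the 95% interval of the difference lay wholly within a 1.5-fold change in either direction (log2 ± 0.585). The exceptions were Ndufs4, the 4 accessory subunits lower at an unadjusted p under 0.05, and the dim Ndufa4l2. Standard errors of the subunits ran from 0.11 to 0.44 with a median of 0.14, against a median of 0.27 over all genes tested.

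The core subunits of the NADH-oxidising end came first in the path of electrons. Ndufv1, which binds NADH and the flavin, had intensities of 4613, 4426, 4141 and 2970 on hyperthyroid replicates 1, 2, 3 and 5, against 4691, 4579, 4375 and 4057 on control replicates 7, 8, 9 and 11. The groups overlapped, and hyperthyroid replicate 5 was well under the other 7 arrays. Its log2 fold change was -0.15 ± 0.14 (SE, limma adjusted p = 0.751). Ndufv2, an iron-sulphur protein beside it, had 11807, 11314, 10977 and 8131 in hyperthyroid muscle (replicates 1, 2, 3 and 5), against 10899, 11566, 11092 and 11555 in control muscle (replicates 7, 8, 9 and 11). Again only hyperthyroid replicate 5 fell outside the control range by a wide margin, and the difference was -0.11 ± 0.13 (SE, limma adjusted p = 0.807). Without that array, the value was 0.011 for Ndufv2, and for Ndufv1 the lowest of the values with 1 array left out was -0.22 and the highest -0.0097. Ndufs1, the large subunit that carries several iron-sulphur clusters, had 5617, 6229, 5577 and 4518 in hyperthyroid muscle (replicates 1, 2, 3 and 5), against 6874, 6250, 5209 and 6226 in control muscle (replicates 7, 8, 9 and 11). These ranges overlapped widely, with a difference of -0.17 ± 0.13 (SE, limma adjusted p = 0.696). It was -0.075 without hyperthyroid replicate 5, -0.11 without control replicate 7 and -0.24 without control replicate 9.

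The other core subunits described here lie toward the ubiquinone site. Ndufs3, a subunit of the connecting part of the hydrophilic arm, had 5098, 5100, 5365 and 4529 in hyperthyroid muscle (replicates 1, 2, 3 and 5), against 5740, 6123, 5965 and 6891 in control muscle (replicates 7, 8, 9 and 11). All hyperthyroid arrays lay under all control arrays, and Ndufs3 was the only core subunit of the 6 for which this was so. Its log2 fold change was -0.30 ± 0.11 (SE, limma adjusted p = 0.384). Ndufs7, which binds the last iron-sulphur cluster before ubiquinone, averaged 7660 ± 796 in hyperthyroid and 8783 ± 1106 in control muscle (SD, n = 4 each), with a log2 fold change of -0.19 ± 0.13. Ndufs8, a ferredoxin-like subunit that feeds electrons to it, averaged 2234 ± 229 in hyperthyroid and 2580 ± 366 in control muscle (SD, n = 4 each), with -0.20 ± 0.14. Both pairs of groups overlapped, because control replicate 9 was at 7312 for Ndufs7 and at 2034 for Ndufs8, inside the range of the hyperthyroid arrays.

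Core and accessory subunits were set side by side without a test. All 6 core subunits lay below 0, with a median of -0.18, and 21 of 30 accessory subunits did, with a median of -0.081. The core median minus the accessory median ran from -0.15 to -0.046 over the alternatives run, and after quantile normalization the accessory median was 0.035 while the core median was -0.11. On each array, mean log2 signal of core minus accessory subunits was 0.28, 0.26, 0.13 and 0.074 on hyperthyroid replicates 1, 2, 3 and 5. It was 0.33, 0.25, 0.41 and 0.22 on control replicates 7, 8, 9 and 11, so the groups overlapped. Accessory subunits spread more widely, between -0.42 and 0.73, than core subunits, between -0.30 and -0.11. Leaving out Ndufa4, Ndufa4l2 and Ndufab1 gave an accessory median of -0.089.

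In the hydrophilic arm, the accessory subunit Ndufs4 stood apart from the rest. Ndufs4 sits where the NADH-oxidising module joins the arm and is needed for that module to stay attached, and its loss causes Leigh syndrome in humans. Its intensities were 2042, 2998, 3613 and 1672 on hyperthyroid replicates 1, 2, 3 and 5, against 1762, 1451, 1164 and 1637 on control replicates 7, 8, 9 and 11. Hyperthyroid replicates 1, 2 and 3 lay above every control array, and hyperthyroid replicate 5 lay among the controls. The mean was 2581 ± 886 in hyperthyroid and 1503 ± 260 in control muscle (SD, n = 4 each), and the log2 fold change was 0.73 ± 0.22, with a 95% interval of 0.25 to 1.21. This was past an unadjusted limma p (0.00577) and not past the adjusted one (0.273). Scaled to the hybridization controls, with the shift of all genes left in, it was 1.05 with a limma adjusted p of 0.0366. In that fit 114 of the 10200 genes tested passed the adjusted threshold. On the deposited scale the log2 fold change of Ndufs4 ran from 0.55 without hyperthyroid replicate 3 to 0.92 without hyperthyroid replicate 5.

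Set against the mean log2 signal of the other subunits on the same array, a measure chosen after the values were seen and given with no test, Ndufs4 separated the groups. It lay at -1.25, -0.68, -0.50 and -1.33 on hyperthyroid replicates 1, 2, 3 and 5, and at -1.58, -1.90, -1.90 and -1.75 on control replicates 7, 8, 9 and 11. The highest control value (-1.58, replicate 7) lay under the lowest hyperthyroid value (-1.33, replicate 5), the pair of arrays that overlapped in intensity. The mean log2 deviation of all subunits was -0.22 on hyperthyroid replicate 5 and 0.095 on control replicate 7, so dividing by the subunits moved this pair apart. Ndufs4 was picked as the subunit with the largest difference, and the share of all genes that such a ratio separates is not given. The difference of this ratio was 0.84, with an SD of 0.41 over hyperthyroid and 0.15 over control arrays. A ratio within an array shows unequal change and not which side changed. RefSeq (assembly GRCr8) names a pseudogene of Ndufs4, as it does for 16 of the 36 subunit genes, and whether such copies reach these probe sets was not tested.

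**Figure D2:**
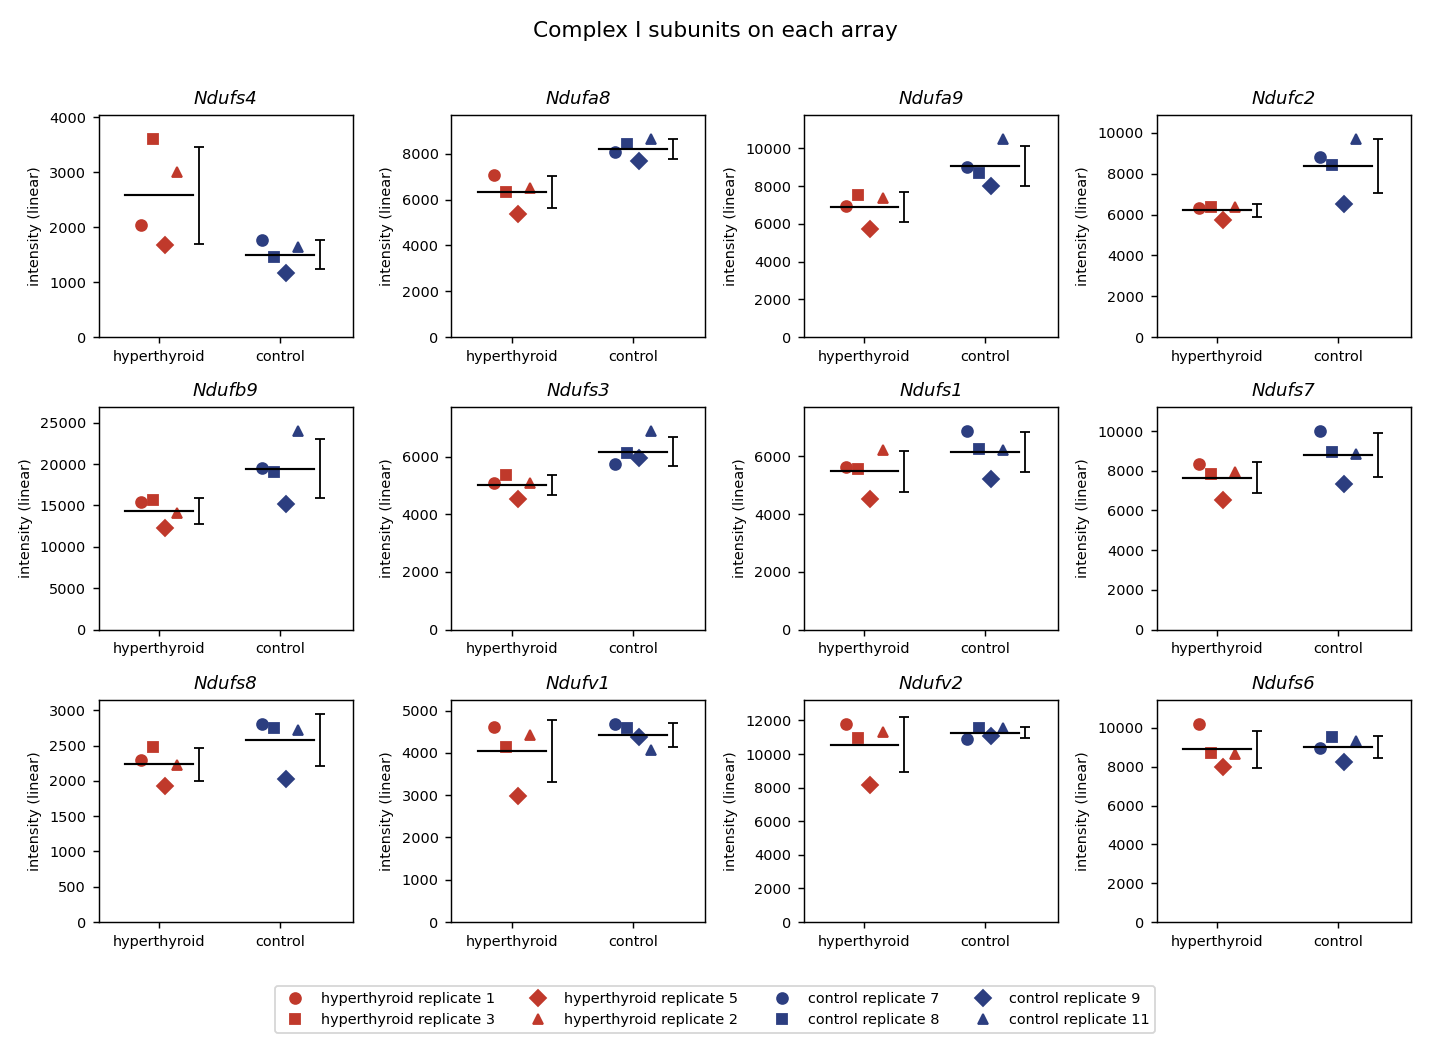
Intensity (linear scale) of 12 complex I subunits on each array, with hyperthyroid arrays on the left and control arrays on the right of each panel, lines for group means and bars for the SD (n = 4). Hyperthyroid replicate 5 and control replicate 9 are the lowest of their groups in most panels, and Ndufs4 is high on hyperthyroid replicates 1, 2 and 3.

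Ndufa9, an accessory subunit beside the ubiquinone site that binds a nicotinamide nucleotide, went the other way. It had 6953, 7371, 7513 and 5741 in hyperthyroid muscle (replicates 1, 2, 3 and 5), against 9008, 8720, 8002 and 10517 in control muscle (replicates 7, 8, 9 and 11). The groups did not overlap, and the log2 fold change was -0.39 ± 0.13 (SE, limma adjusted p = 0.311). Its second probe set was dim, with 98.6 ± 20.2 in hyperthyroid and 75.8 ± 12.8 in control muscle (SD, n = 4 each), and gave 0.36 ± 0.28. When both probe sets were averaged the difference was -0.019. The other 7 accessory subunits of this arm were not past an unadjusted p of 0.05 and ran from -0.25 to 0.16, with 5 below 0. Among them, Ndufs6, which binds zinc, averaged 8883 ± 949 in hyperthyroid and 9003 ± 564 in control muscle (SD, n = 4 each), a difference of -0.023 ± 0.12, and Ndufa2, with a thioredoxin-like fold, had -0.25 ± 0.14. Ndufa5 gave 0.16 ± 0.14 and Ndufv3, a small accessory subunit, 0.13 ± 0.15. Without control replicate 9 these were 0.081 and 0.0014, and without control replicate 8 they were 0.28 and 0.21. Each of the second, dim probe sets of Ndufv3 and Ndufa7 had the opposite sign of the bright one, at -0.72 ± 0.55 and 0.39 ± 0.47, with none past an unadjusted p of 0.05.

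In the membrane arm, 3 of 18 accessory subunits were lower at an unadjusted p under 0.05. Ndufa8, a protein of the intermembrane space with paired cysteine motifs, had 7072, 6523, 6315 and 5374 in hyperthyroid muscle (replicates 1, 2, 3 and 5), against 8054, 8411, 7673 and 8655 in control muscle (replicates 7, 8, 9 and 11). Every hyperthyroid array was under every control array (log2 fold change -0.38 ± 0.12, SE, limma adjusted p = 0.289). Ndufc2, a membrane-spanning subunit close to the join of the arms, had 6307, 6387, 6388 and 5758 in hyperthyroid muscle (replicates 1, 2, 3 and 5), against 8835, 8406, 6542 and 9720 in control muscle (replicates 7, 8, 9 and 11). These groups were also separate, but control replicate 9 was only just above the hyperthyroid arrays (-0.42 ± 0.13, SE, limma adjusted p = 0.297). The hyperthyroid arrays were close together, with an SD of 304 against 1339 over the controls.

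Ndufb9, a subunit of the distal membrane arm that binds the mitochondrial acyl carrier protein, had 15456, 14052, 15657 and 12263 in hyperthyroid muscle (replicates 1, 2, 3 and 5), against 19490, 19018, 15231 and 23974 in control muscle (replicates 7, 8, 9 and 11). Control replicate 9 lay within the hyperthyroid range, and the other 3 control arrays lay above it. The difference was -0.42 ± 0.15 (SE, limma adjusted p = 0.336). The other 15 accessory subunits of this arm ran from -0.23 to 0.19, with 9 below 0. Ndufb11, an X-linked subunit, had -0.23 ± 0.13, and Ndufa1, the other X-linked subunit here, had -0.19 ± 0.13. Ndufb3 and Ndufb5, both of the distal membrane arm, had -0.18 ± 0.12 and -0.19 ± 0.15. Ndufb8 gave 0.19 ± 0.17, the highest of this arm, with 1272 ± 130 in hyperthyroid and 1139 ± 300 in control muscle (SD, n = 4 each). It was 0.085 without control replicate 9, 0.34 without control replicate 7 and 0.48 without control replicates 7 and 11. Ndufc1, the partner of Ndufc2 in this part of the arm, averaged 3734 ± 377 in hyperthyroid and 3577 ± 497 in control muscle (SD, n = 4 each), with a difference of 0.067 ± 0.13. Ndufa13, also known as Grim19, differed by -0.0077 ± 0.14.

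The rule also took in 3 genes whose products are not only complex I subunits. Ndufa4, now counted with cytochrome c oxidase, averaged 11166 ± 859 in hyperthyroid and 12761 ± 1391 in control muscle (SD, n = 4 each), and its log2 fold change was -0.19 ± 0.12. Ndufab1, the mitochondrial acyl carrier protein that also serves fatty acid synthesis, gave -0.052 ± 0.11. Ndufa4l2, a paralog of Ndufa4 known to be induced by hypoxia, was dim, at 79.8 ± 50.5 in hyperthyroid and 72.3 ± 20.3 in control muscle (SD, n = 4 each), and its difference of -0.039 had an interval of -0.98 to 0.90. The probe set shared by Ndufs5 and its pseudogene gave 0.17 ± 0.13, and that shared by Ndufa10 and Ndufa10l1 gave -0.10 ± 0.16.

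Promoter sequences were available for 34 of the 36 genes, from RefSeq (GRCr8), as the 250 bases before and 50 after the annotated start. They were searched on both strands for the letters GCATGCGC (nuclear respiratory factor 1), CCGGAAG (the ETS factor GABPA), AAGATGGCG (YY1), AGGTCA (the hexamer that thyroid hormone receptors and other nuclear receptors bind) and TCAAGGTCA (oestrogen-related receptor, which contains the hexamer). The YY1 letters were in 7 of 34 subunit promoters (20.6%) and in 1.73% of all 33469 promoters. Those of GABPA were in 7 of 34 (20.6%, against 8.75% of all), those of nuclear respiratory factor 1 in 2 (5.88%, against 2.47%) and the hexamer in 8 (23.5%, against 16.2%). The longer TCAAGGTCA was in none (0.433% of all). A match is a description of letters, not a binding site. Of the subunits past an unadjusted p of 0.05, Ndufs4 and Ndufa9 both held the YY1 letters just after the annotated start, although their differences had opposite signs, and Ndufc2 held the hexamer. Ndufs3 held none of these letters, and Ndufa8 and Ndufb9 were the genes with no sequence used here. These 3 promoters, picked after the values were seen to set the higher subunit beside 2 lower ones, are printed 5′ to 3′ on the gene's strand, with the matched letters in capitals. They lie at chr2:47794865-47795164 (minus strand) for Ndufs4, chr4:161374121-161374420 (minus strand) for Ndufa9 and chr1:161122940-161123239 (plus strand) for Ndufc2.
Ndufs4: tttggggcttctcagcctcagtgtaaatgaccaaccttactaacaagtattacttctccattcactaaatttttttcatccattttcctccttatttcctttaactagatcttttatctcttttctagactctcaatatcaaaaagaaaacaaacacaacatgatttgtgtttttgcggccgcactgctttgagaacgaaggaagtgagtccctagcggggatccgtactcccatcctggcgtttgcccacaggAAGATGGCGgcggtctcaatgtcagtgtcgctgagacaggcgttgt
Ndufa9: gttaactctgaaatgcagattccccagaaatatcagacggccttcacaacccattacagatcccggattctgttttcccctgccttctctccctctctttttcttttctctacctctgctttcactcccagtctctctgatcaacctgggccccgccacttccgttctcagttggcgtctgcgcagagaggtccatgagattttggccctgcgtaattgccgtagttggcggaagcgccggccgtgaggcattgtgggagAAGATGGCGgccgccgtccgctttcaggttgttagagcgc
Ndufc2: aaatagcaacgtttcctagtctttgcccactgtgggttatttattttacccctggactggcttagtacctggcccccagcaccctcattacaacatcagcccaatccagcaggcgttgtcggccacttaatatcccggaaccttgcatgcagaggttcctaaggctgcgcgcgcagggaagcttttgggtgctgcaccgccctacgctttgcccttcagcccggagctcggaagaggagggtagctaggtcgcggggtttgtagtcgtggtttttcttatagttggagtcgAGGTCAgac
In Ndufs4 the capitals cover bases 255 to 263 of the window, in Ndufa9 bases 261 to 269, and in Ndufc2 bases 292 to 297.

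Most subunits were lowest on the same array of each group. Hyperthyroid replicate 5 was the lowest hyperthyroid array for 31 of 36 subunits, against 28.7% of all genes tested. Control replicate 9 was the lowest control array for 29 of 36, against 28.4% of all genes tested. All 6 core subunits were lowest of all 8 arrays on hyperthyroid replicate 5. Among the 237 other genes with a mean log2 signal of at least 12, these shares were 40.1% for hyperthyroid replicate 5 and 32.5% for control replicate 9. The highest control array was replicate 11 for 15 of 36 subunits, against 30.2% of all genes tested.

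As a mean deviation from each gene's own mean over the 8 arrays, core subunits were at 0.012, -0.0024, -0.017 and -0.37 log2 on hyperthyroid replicates 1, 2, 3 and 5, and at 0.17, 0.14, -0.057 and 0.13 on control replicates 7, 8, 9 and 11. Accessory subunits were at -0.025, -0.018, 0.098 and -0.20 on hyperthyroid replicates 1, 2, 3 and 5, and at 0.081, 0.12, -0.22 and 0.16 on control replicates 7, 8, 9 and 11. Core subunits were thus furthest down on hyperthyroid replicate 5, and accessory subunits on control replicate 9 as much as on hyperthyroid replicate 5. The difference between the group means was -0.19 for core subunits, with an SD of 0.18 over hyperthyroid and 0.10 over control arrays. For accessory subunits it was -0.071, with SDs of 0.12 and 0.17, so the spread between rats of a group was larger than the difference. Without hyperthyroid replicate 5 and control replicate 9, an alternative chosen after seeing the data, 26 of 36 subunits lay below 0 and the median was -0.12. There 5 subunits were lower at an unadjusted p under 0.05, with no share of all genes at that p given beside them. In that alternative the groups did not overlap for 15 lower subunits, against 8.95% of all genes, and for 1 higher subunit, against 8.02%.

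**Figure D3:**
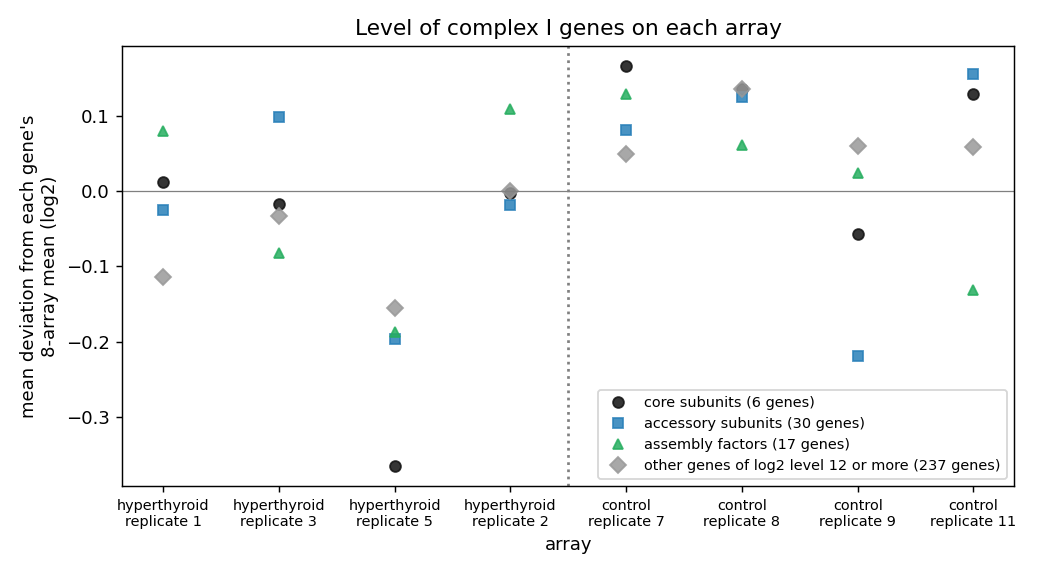
Mean deviation (log2) of core subunits, accessory subunits, assembly factors and the other genes of high signal from each gene's own mean over 8 arrays, for every array, hyperthyroid arrays left of the dotted line. Core and accessory subunits are both low on hyperthyroid replicate 5, and accessory subunits reach -0.22 on control replicate 9.

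Markers of fibre type differed between the same arrays. The summed intensity of the 9 slow-fibre genes measured of 10 listed ran from 1538 to 9156 on hyperthyroid and from 4625 to 43860 on control arrays. All 9 lay below 0, with a median of -2.72 and 6 past an unadjusted limma p of 0.05. Their sum was lowest on hyperthyroid replicate 5 (1538), where Myh2, the myosin of fast oxidative fibres, was at 903 against 13325 to 25518 on the other hyperthyroid arrays. Control replicate 9 had the lowest slow-fibre sum (4625) and the lowest Myh2 (10967) of the controls. The mean log2 deviation of all subunits was -0.22 on hyperthyroid replicate 5 and -0.19 on control replicate 9. Hyperthyroid replicates 1, 2 and 3 had slow-fibre sums of 4596, 9156 and 3472, with subunit deviations of -0.019, -0.016 and 0.079. Control replicate 8 had a slow-fibre sum of 6039 and a subunit deviation of 0.13. Myh2 was at 13701, 25518 and 13325 on hyperthyroid replicates 1, 2 and 3, and at 16582 on control replicate 8. Control replicates 7 and 11, with slow-fibre sums of 43860 and 30190, had Schwann cell and nerve sums of 3198 and 2200, against 412 and 564 on control replicates 8 and 9 and 648 to 1147 on hyperthyroid arrays (5 of 8 listed genes measured, 4 below 0). Of the 10 fast-fibre genes 9 lay below 0, with a median of -0.36 and 5 past an unadjusted limma p of 0.05. The 7 smooth muscle genes all lay below 0, with sums of 6275 to 9281 on hyperthyroid and 7158 to 9479 on control arrays. Des alone held 5110 to 8044 on hyperthyroid and 5422 to 8238 on control arrays, so these sums mostly follow that gene. Of the 7, 2 were past an unadjusted limma p of 0.05, Tagln (-0.79) and Smtn (-0.57). Erythroid (3 of 6 listed genes measured), adipocyte (4 of 6) and macrophage genes (6 of 6) had sums that overlapped between groups. Of these, 2 of 3 erythroid, 1 of 4 adipocyte and 2 of 6 macrophage genes lay below 0, with medians of -0.30, 0.81 and 0.21. The part of fibre type and of other cells in the subunit values was not tested. Without both control replicates 7 and 11, 24 of 36 subunits lay below 0 and the median was -0.070.

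Signal strength also went with the direction of the differences. Of the 36 subunits, 35 were above the 90th percentile of mean signal over all genes tested. The other 237 genes with a mean log2 signal of at least 12 are set beside the 23 subunits in that range without a test. The subunits had a median difference of -0.18 with 21 (91.3%) below 0, and the other genes -0.15 with 172 (72.6%) below 0. Of these 23 subunits, 5 were lower at an unadjusted p under 0.05 and 4 had separate, lower groups. Among the 237 other genes, 64 were lower at that p and 38 were separate and lower. Higher values gave 0 and 0 of the 23 subunits and 11 and 11 of the 237 genes. The share of all signal in the 100 brightest probe sets, 3 of them complex I subunits, averaged 22.4 ± 1.29% in hyperthyroid muscle and 26.4 ± 0.851% in control muscle (SD, n = 4 each). An exact two-sided permutation test gave p = 0.0286, the smallest value open to 70 assignments. The subunits themselves held 2.34 ± 0.186% of the signal in hyperthyroid and 2.43 ± 0.224% in control muscle (SD, n = 4 each), a difference within the spread between arrays. Below log2 12 lay 13 subunits, among them Ndufs4 and the 6 others above 0 with the largest differences (Ndufb8, Ndufa5, Ndufa3, Ndufv3, Ndufb6 and Ndufc1). Whether the lower values belong to complex I or to bright probe sets in general was not tested.

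**Figure D4:**
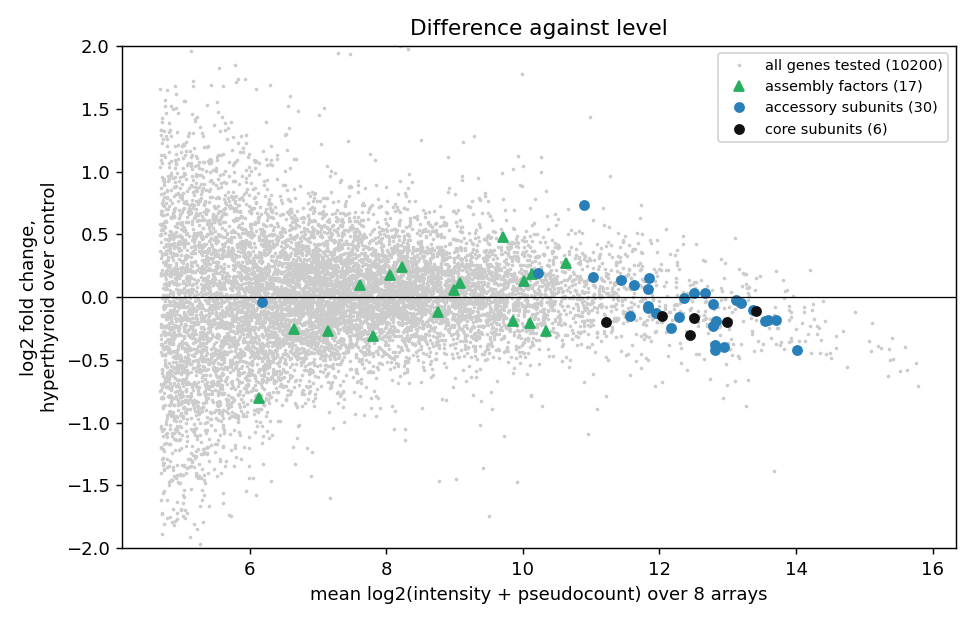
Log2 fold change (hyperthyroid over control) against the mean log2 signal over 8 arrays for all 10200 genes tested (grey), complex I assembly factors (triangles), accessory subunits (blue) and core subunits (black), with 19 genes beyond log2 ± 2 not drawn. Genes of high signal, subunits among them, lie mostly below 0.

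The assembly factors of complex I, which build the complex and leave it, were split between lower and higher values. The list of 20 genes also held Cox7a2l, which helps to join complexes III and IV into supercomplexes. Of these, 17 were tested, 8 lay below 0, and the median was 0.055. Without Cox7a2l, a choice made after seeing the data, 8 of 16 lay below 0 and the median was -0.033. With 1 array left out the sign also turned, as the median was -0.062 without hyperthyroid replicate 1 and -0.016 without control replicate 11. None passed after adjustment over all genes. Ndufaf8, which stabilises the assembly factor Ndufaf5, had 1142, 1297, 1180 and 1094 in hyperthyroid muscle (replicates 1, 2, 3 and 5), against 1354, 1639, 1360 and 1343 in control muscle (replicates 7, 8, 9 and 11). The groups were separate, and the log2 fold change was -0.27 ± 0.12 (SE, limma adjusted p = 0.469). Cox7a2l had 1641, 2026, 1605 and 1693 in hyperthyroid muscle (replicates 1, 2, 3 and 5), against 1361, 1473, 1509 and 1408 in control muscle (replicates 7, 8, 9 and 11). Here every hyperthyroid array was above every control array (0.27 ± 0.12, SE, limma adjusted p = 0.455), as was so for 3.34% of all genes tested.

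Other factors were not past an unadjusted p of 0.05. Ndufaf3 and Ndufaf4, which act together early in assembly, gave -0.19 ± 0.12 and 0.48 ± 0.26. Ndufaf3 was lower on every hyperthyroid array (838 to 918) than on any control array (946 to 1030). Ecsit, Tmem126b and Acad9, of the complex that builds the membrane arm, gave -0.21 ± 0.14, 0.18 ± 0.12 and -0.12 ± 0.15. Tmem70, which serves both complex I and ATP synthase, was dim and gave -0.80 ± 0.44.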

How the data were processed

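Muscle RNA of 8 rats was measured on Affymetrix arrays, 1 per rat. The deposited values are intensities, 1 per probe set and array, and GCOS is named in the submitters' processing notes, with version and settings not given in the sources used here. Reverse transcription started from the poly(A) tail, per the labels' protocols, which favours the 3′ end of a transcript. The trimmed mean of the deposited intensities was 150 on every array, which removes differences in total RNA.

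A pseudocount of 3.41, the 10th percentile of all intensities, was added before taking log2. Fold changes are on that scale. Probe sets above the 40th percentile of mean log2 value (4.69) were kept, 18625 in all, with 57 controls left out, and 10200 genes were each represented by their brightest kept probe set. They were tested with limma 3.58.1 (R 4.3.3; lmFit, eBayes with a variance trend, two-sided, Benjamini-Hochberg over all genes). On simulated arrays with 10200 genes, this fit called 66% of the genes changed by log2 1, 97% of those changed by log2 2, and 8 of 10000 unchanged genes. Symbols came from the platform annotation, and all 36 subunit symbols matched RefSeq.

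The subunits, the gene lists and the tests were chosen with earlier results of these data known, and no set was tested. Core subunits, accessory subunits past an unadjusted p of 0.05, family extremes and the brightest member of each family were named by a fixed rule; other named subunits were chosen after their values were seen. The labels do not say whether controls received injections. Alternatives are given in the closing section.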

Additional observations from a re-analysis of the deposited data

Results flagged for a closer look

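Among 88 groups of 4 arrays examined, 10 had 1 array whose gap to its nearest neighbour took up most of the group's range (Dixon's test at 95%), where chance flags about 1 in 20. Control replicate 9 was the lowest control array for Ndufa2 (3960, the next 5319), Ndufa6 (4484, the next 5530), Ndufb1 (4031, the next 6399) and Ndufs8 (2034, the next 2724). It was also the lowest in the mean log2 deviation of all subunits (-0.19, the next 0.095) and of the core subunits (-0.057, the next 0.13). Hyperthyroid replicate 5 was the lowest hyperthyroid array for Ndufa1 (5807, the next 7134), Ndufc2 (5758, the next 6307) and the mean log2 deviation of the core subunits (-0.37, the next -0.017). Control replicate 8 was the highest control array for Ndufaf8 (1639, the next 1360). Several of these values share arrays and genes, so they are not separate events, and their cause was not tested.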

How the results depend on the processing

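No subunit passed an adjusted p of 0.05 in any alternative when values were taken relative to the median gene. Centring on array medians and scaling to 18 hybridization control probe sets raised the median of all genes by 0.22 and 0.32. With that shift left in, 7 and 4 of 36 subunits lay below 0, Ndufs4 had 0.95 (limma adjusted p = 0.0998) and 1.05 (limma adjusted p = 0.0366), and 12 and 114 genes were called over the whole array. The number of genes called over the whole array was 1 at an adjusted p under 0.01, 1080 at an unadjusted p under 0.05, 4 after centring and 2 after scaling to the hybridization controls (both relative to the median gene), 11 with no filter, 0 with no variance trend, 14 with a robust variance, 1 when a gene's probe sets were averaged, and 3 without control replicates 7 and 11. With 1 array left out it ran from 0 to 7. The count of subunits lower at an unadjusted p under 0.05 was 3 after quantile normalization and 1 without control replicates 7 and 11, and ran from 4 to 10 with 1 array left out. The share of all genes lower at that p is not given for these alternatives. Of all 36 subunits, 9 changed sign after quantile normalization. Among the subunits named by rule, signs turned for Ndufs6 (0.087 after quantile normalization, 0.00072 without control replicates 7 and 11, 0.027 and 0.0035 without hyperthyroid replicate 5 and control replicate 8) and Ndufv2 (0.020 after quantile normalization, 0.011 without hyperthyroid replicate 5, 0.0032 without that array and control replicate 9). They also turned for Ndufv3 (-0.29 when its probe sets were averaged), Ndufc1 (-0.0057 without control replicate 9) and the dim probe set of Ndufa7 (-0.20 without control replicates 7 and 11). With 1 array left out, Ndufs6 ran from -0.092 to 0.027, Ndufs7 from -0.28 to -0.12 and Ndufs8 from -0.31 to -0.13. The subunits below 0 then numbered 21 to 30. Their median ran from -0.17 to -0.034, that of core subunits from -0.26 to -0.097, and that of accessory subunits from -0.15 to -0.026. The core median minus the accessory median ran from -0.13 to -0.046. For assembly factors the median ran from -0.062 to 0.14, with 7 to 10 below 0. The cause of these shifts was not tested. No paired analysis was possible because the groups share no replicate number.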
